A study of Mus musculus with 6 samples.

Results

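The actin cytoskeleton genes described here are 45 genes for actin and for the proteins that nucleate, bind, sever, cap, cross-link and pull on its filaments. They were chosen by symbol, with earlier results of these data known. A gene was measured by the brightest probe set annotated to it alone, which left 42 of the 45, out of 19937 genes on the array. Actg1, which encodes gamma actin, had only probe sets shared with Actb, and the Arp2/3 subunit genes Arpc3 and Actr2 were not listed in the annotation used here.

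The 6 arrays came from primary granulocytes of C57BL/6J mice, 3 labelled caffeine+ and 3 labelled caffeine-, and the labels state neither age nor sex nor the number of animals. Per the labels' protocols, cells were exposed to 15 mM caffeine over 4 hours and rinsed 2 times in PBS, after which 1 plate received 2 µg/ml of the transcription inhibitor actinomycin D plus caffeine (caffeine+) and the other plate actinomycin D alone (caffeine-), for a further 4 hours. Read this way, all cells had met caffeine and all were blocked in transcription, so the groups differ in the presence of caffeine during the block, although the source label of the caffeine- samples says that they had none. The series set out to find transcripts that accumulate when nonsense-mediated decay is inhibited, for which caffeine was the agent.

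Actin monomers add to and leave the ends of filaments, and a granulocyte crawls and engulfs by building a branched network at its front and contracting it at its rear. The Arp2/3 complex starts branches when switched on by proteins of the WASP and WAVE families, profilin and the beta-thymosins hold the pool of monomers, cofilin and coronins take old filaments apart, capping proteins close filament ends, and myosin II pulls on filaments that cross-linkers hold together. Many of these transcripts are abundant in granulocytes, and some of the genes are classic targets of the transcription factor SRF.

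Arrays of the same group correlated with each other at r = 0.986 to 0.992 over all probe sets, and arrays of different groups at 0.959 to 0.965. The label granulocyte was set beside lists of cell type markers: the 13 granulocyte markers had mean log2 values of 7.42 to 12.78, and the 9 measured monocyte and macrophage markers 6.62 to 11.01. Levels of different probe sets cannot be ranked against each other, so these values do not settle which cells the RNA came from. Values are log2 and relative to the rest of each array, and in such bulk samples fewer cells of a type and less RNA per cell cannot be told apart. The labels do not say whether the replicates were separate cultures or animals. Each p-value therefore reflects only how far these arrays scatter, and that scatter may be technical.

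The actin cytoskeleton genes were mostly lower in the caffeine+ arrays. Throughout, fell and rose mean lower and higher in caffeine+ than in caffeine- arrays, both taken after the transcription block. No array was taken before the block, so change over time within a group was not measured. Of the 42 measured, 26 fell (61.9%), against 21.7% of all genes, and 2 rose (4.76%), against 16.2% of all genes, while 14 did not pass the test (limma, two-sided, Benjamini-Hochberg adjusted p under 0.05 over all 19937 genes). The median log2 difference, caffeine+ minus caffeine-, was -0.31 over the 42 genes (quartiles -0.54 and -0.08) and -0.04 over all genes (quartiles -0.22 and 0.12). All 42 genes had a signal above that of the median gene of the array, with mean log2 values from 7.20 (Wipf1) to 12.63 (Tmsb4x). Among the 7706 genes at least as bright as the dimmest of them, 34.5% fell and 34.6% rose, and among the 1733 genes at least as bright as their median, 35% fell and 40.7% rose.

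**Figure D1:**
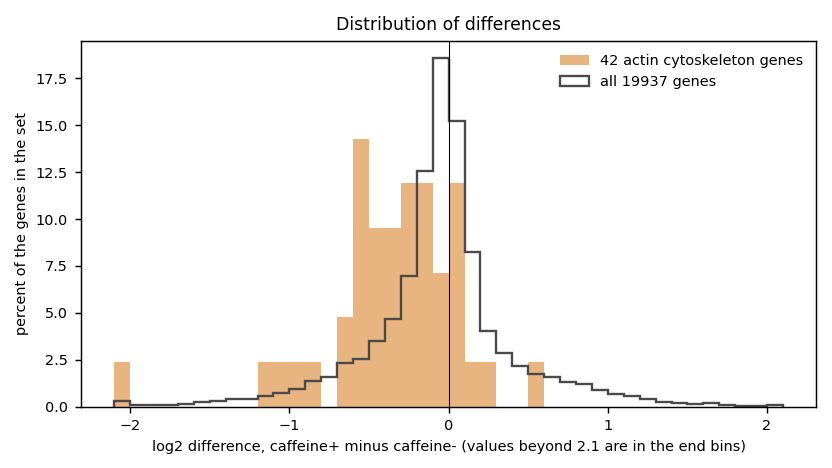
Percent of genes (y axis) in bins of the log2 difference between caffeine+ and caffeine- arrays (x axis), for the 42 actin cytoskeleton genes (filled) and all 19937 genes (line). The filled distribution lies mostly left of 0, with a median of -0.31 against -0.04 for all genes, and the bar at the far left is Capg.

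In 31 of the 42 genes every caffeine+ array was below every caffeine- array, an arrangement found in 26.3% of all genes, and in 3 every caffeine+ array was above, as in 19.5% of all genes. The groups overlapped in 8. The falls were mostly moderate: 14 were smaller than 0.5 on the log2 scale, 10 were between 0.5 and 1, and 2, those of Capg and Myl12b, were at least 2-fold, where 3.15% of all genes fell by that much. No gene of the list rose by 2-fold or more, as 2.63% of all genes did. Taken array by array, the median log2 value over the 42 genes was 9.40, 9.44 and 9.35 in the caffeine+ arrays and 9.78, 9.70 and 9.73 in the caffeine- arrays.

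**Figure D2:**
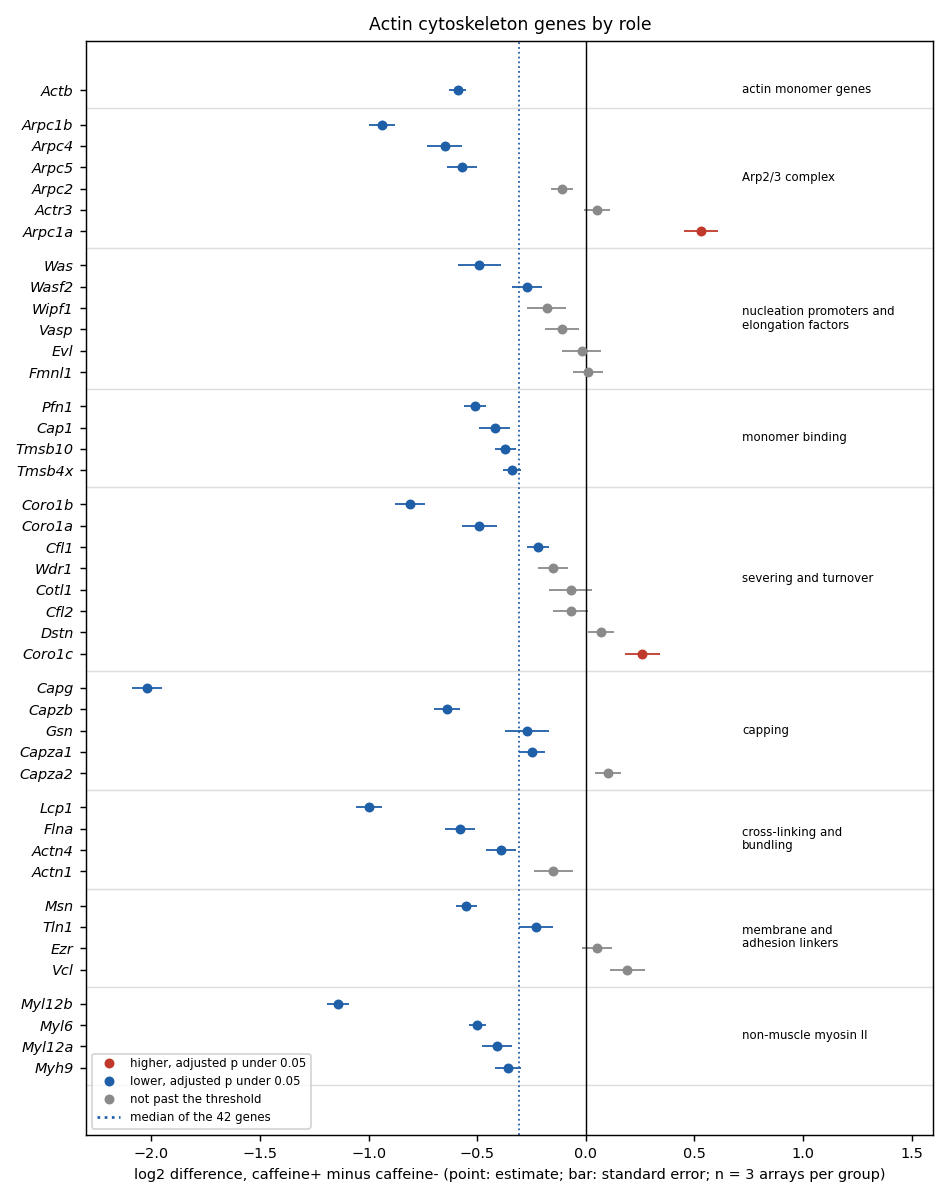
Log2 difference, caffeine+ minus caffeine- (x axis, points with standard errors, n = 3 arrays per group), for each of the 42 genes, grouped by role. Blue points mark the 26 genes that fell, red points the 2 that rose (Arpc1a and Coro1c) and grey points the 14 that did not pass the test, and the dotted line is the median of -0.31.

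Some actin genes are known targets of SRF, so the promoters of the list were searched for its binding sequence, the CArG box. Both strands were searched in the 300-base windows that RefSeq annotation (GRCm38.p6) gives, 250 bases before and 50 after a gene's start. Windows were found for 39 of the 42 genes, 49 windows in all because some genes have several starts. Actb, Coro1b and Cotl1 had no window, so their promoters, that of beta actin among them, were not searched. A CArG box was present in 3 of these windows (6.12%), those of Arpc4, Myl6 and Vcl, against 1.63% of all 32851 windows. They are shown here 5′ to 3′ on the gene's strand, with the box in capitals, because they are the searched promoters that carry this sequence.
Arpc4, chr6:113377863-113378162, + strand: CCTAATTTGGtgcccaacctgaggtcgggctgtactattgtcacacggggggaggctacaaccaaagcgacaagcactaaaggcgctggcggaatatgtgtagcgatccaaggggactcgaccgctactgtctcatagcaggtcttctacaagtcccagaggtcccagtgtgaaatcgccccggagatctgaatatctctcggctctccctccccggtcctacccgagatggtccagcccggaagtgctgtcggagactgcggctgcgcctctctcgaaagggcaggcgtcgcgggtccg
Myl6, chr10:128492960-128493259, - strand: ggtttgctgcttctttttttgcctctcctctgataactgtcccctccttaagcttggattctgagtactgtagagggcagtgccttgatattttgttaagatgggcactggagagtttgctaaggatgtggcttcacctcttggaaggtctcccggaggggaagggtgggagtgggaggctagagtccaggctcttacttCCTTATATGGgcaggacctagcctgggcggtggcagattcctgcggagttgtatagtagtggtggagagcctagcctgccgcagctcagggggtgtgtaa
Vcl, chr14:20929148-20929447, + strand: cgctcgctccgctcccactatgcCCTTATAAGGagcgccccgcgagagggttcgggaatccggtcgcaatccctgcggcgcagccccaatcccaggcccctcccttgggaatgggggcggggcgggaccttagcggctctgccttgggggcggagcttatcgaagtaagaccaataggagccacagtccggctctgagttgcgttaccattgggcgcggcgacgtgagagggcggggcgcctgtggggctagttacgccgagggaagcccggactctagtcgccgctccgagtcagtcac
The box began 250 bases before the start in Arpc4, at the edge of the window, 50 bases before it in Myl6 and 227 bases before it in Vcl. Arpc4 and Myl6 fell, while Vcl was among the genes that did not pass the test and lay on the other side of 0. The GC-rich motif GGGCGG was in 37 of the 49 windows (75.5%), against 35.7% of all windows, and the TATA motif TATAAA was in 1 (2.04%), that of Myh9, against 13.6%. CCAAT was in 12 of the windows (24.5%), against 37.4% of all windows. A match is a stretch of letters and says nothing of binding in these cells. Cells of both groups were under the transcription inhibitor actinomycin D. Whether a motif bears on the differences between the groups was not tested.

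Actb, which encodes beta actin, was lower in the caffeine+ arrays by its own probe set. Its log2 values were 12.01, 12.08 and 12.03 in caffeine+ and 12.63, 12.62 and 12.64 in caffeine-. The groups were far apart for their spread, at a difference of -0.59 ± 0.04 (SE, n = 3 per group) or 1.5-fold lower (limma adjusted p = 1e-08). The 4 probe sets annotated to both Actb and Actg1 did not follow it. The brightest, 10506424, had log2 values of 12.03, 12.06 and 11.96 in caffeine+ against 11.96, 11.99 and 11.95 in caffeine- (difference 0.05 ± 0.04, limma adjusted p = 0.48 in a fit of every probe set), and the others differed by 0.01 ± 0.04 (10571653), -0.03 ± 0.10 (10406417) and 0.22 ± 0.17 (10393754). Which of the 2 transcripts these shared probe sets measured cannot be told from the annotation, so gamma actin was left without a value.

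The genes for proteins that hold actin monomers were uniform by their brightest probe sets: all 4 measured fell. Pfn1, for profilin, which feeds monomers to growing filament ends, had log2 values of 11.78, 11.79 and 11.61 in caffeine+ against 12.28, 12.26 and 12.19 in caffeine-, which is 1.43-fold lower (difference -0.51 ± 0.05). Tmsb4x encodes thymosin beta-4, which keeps monomers from polymerizing, and read 12.47, 12.46 and 12.44 in caffeine+ against 12.83, 12.86 and 12.71 in caffeine-, or 1.27-fold lower (difference -0.34 ± 0.04). In both genes the lowest caffeine- array stayed above the highest caffeine+ array. Its relative Tmsb10 differed by -0.37 ± 0.05 and Cap1, for a cyclase-associated protein that recharges and recycles monomers, by -0.42 ± 0.07. A second, dimmer Tmsb10 probe set, 10545479, gave -0.24 ± 0.08 and did not pass in the fit of every probe set (limma adjusted p = 0.057), whereas the brighter one did (0.0017). The spans of Pfn1 and Cap1 overlap those of Eno3 and Ppt1.

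Among the 6 measured genes of the Arp2/3 complex, which nucleates branched filaments, 3 fell, 1 rose and 2 did not pass. The split ran between a pair of genes for alternative forms of the same subunit. Arpc1b, the form that predominates in blood cells, had log2 values of 9.81, 9.70 and 9.71 in caffeine+ and 10.69, 10.64 and 10.70 in caffeine-, 1.92-fold lower (difference -0.94 ± 0.06, limma adjusted p = 4.3e-09). A second Arpc1b probe set gave a difference of -0.98 ± 0.06. Arpc1a went the other way, with 9.55, 9.54 and 9.43 in caffeine+ and 8.93, 9.12 and 8.89 in caffeine-, 1.44-fold higher (difference 0.53 ± 0.08, limma adjusted p = 3.3e-05). Neither gene's groups overlapped.

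The small subunit genes Arpc4 and Arpc5 were lower as well. Arpc4 read 8.80, 8.86 and 8.62 in caffeine+ against 9.42, 9.45 and 9.37 in caffeine-, which is 1.57-fold lower (difference -0.65 ± 0.08), and its span overlaps that of Ttll3, and the annotation does not say how signal there is shared. Arpc5 differed by -0.57 ± 0.07. Arpc2 and Actr3, for a core subunit and for one of the actin-related proteins that mimic an actin pair, differed by -0.11 ± 0.05 (limma adjusted p = 0.089) and 0.05 ± 0.06 (0.57). Arpc2 read 12.31 ± 0.01 in caffeine+ and 12.42 ± 0.10 in caffeine- (SD, n = 3), and passed in some of the alternative analyses.

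Of the 6 genes whose proteins switch the complex on or extend filaments, 2 fell and none rose (limma, and none was higher at an unadjusted p under 0.05). Was encodes WASP, the blood-cell activator of Arp2/3, and had log2 values of 7.00, 7.15 and 6.87 in caffeine+ against 7.50, 7.57 and 7.42 in caffeine-, 1.4-fold lower (difference -0.49 ± 0.10, limma adjusted p = 0.00067). The groups did not overlap. Wasf2, for the WAVE2 activator, differed by -0.27 ± 0.07 (limma adjusted p = 0.0041). Wipf1, for the partner protein of WASP, gave -0.18 ± 0.09, the filament-elongating Ena/VASP genes Vasp and Evl gave -0.11 ± 0.08 and -0.02 ± 0.09, and the formin gene Fmnl1 gave 0.01 ± 0.07, none of which passed.

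Genes for filament severing and turnover divided. Cfl1, for cofilin, which severs aged filaments, was slightly lower, with log2 values of 11.23, 11.23 and 11.32 in caffeine+ and 11.45, 11.49 and 11.51 in caffeine- (difference -0.22 ± 0.05, limma adjusted p = 0.0017). That was the smallest difference in the list to pass the test, 1.16-fold, and its groups still did not overlap. The coronins, which guide cofilin and Arp2/3 at the leading edge, went both ways. Coro1a, the leukocyte form, read 8.74, 8.73 and 8.75 in caffeine+ against 9.35, 9.30 and 9.03 in caffeine-, 1.4-fold lower (difference -0.49 ± 0.08). Coro1b read 8.57, 8.47 and 8.42 in caffeine+ against 9.29, 9.31 and 9.29 in caffeine-, 1.75-fold lower (difference -0.81 ± 0.07). Both were lower in every caffeine+ array than in any caffeine- array.

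Coro1c rose, with 8.51, 8.71 and 8.50 in caffeine+ and 8.35, 8.33 and 8.25 in caffeine-, 1.19-fold higher (difference 0.26 ± 0.08, limma adjusted p = 0.021). The highest of its values was that of caffeine+ array 2, and without that array the difference was 0.19 and did not pass (limma adjusted p = 0.15, range 0.012 to 0.15 over 16 alternatives). Coro1c also did not pass with every probe set tested (limma adjusted p = 0.051). The remaining turnover genes did not pass. Cfl2, the muscle-type cofilin, differed by -0.07 ± 0.08, the cofilin relative Dstn by 0.07 ± 0.06, Wdr1, a cofilin helper, by -0.15 ± 0.07, and Cotl1, for coactosin-like protein, by -0.07 ± 0.10.

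Capping genes held the largest change of the list. Capg, for a gelsolin-related protein that caps the fast-growing filament end in phagocytes, had log2 values of 8.10, 7.97 and 7.94 in caffeine+ and 10.01, 10.05 and 10.01 in caffeine-. It was 4.07-fold lower (difference -2.02 ± 0.07, limma adjusted p = 3.4e-11), and 64 of the 19937 genes had a larger change in either direction. Replicates lay within 0.16 of each other at most, so the gap between the groups was many times their spread. Capzb, for the beta subunit of capping protein, read 9.50, 9.65 and 9.58 in caffeine+ against 10.26, 10.17 and 10.21 in caffeine-, 1.55-fold lower (difference -0.64 ± 0.06). Of the alpha subunit genes, Capza1 differed by -0.25 ± 0.06 (limma adjusted p = 0.004) and Capza2 by 0.10 ± 0.06, which did not pass.

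A dimmer Capza1 probe set, 10349014, showed no difference that passed, at 10.69, 10.80 and 10.83 in caffeine+ and 10.84, 10.84 and 10.64 in caffeine- (limma adjusted p = 0.99). With the mean of its probe sets Capza1 differed by -0.12 and was not called. Gsn, for gelsolin, which severs and caps, differed by -0.27 ± 0.10 with an adjusted p just under the threshold (limma adjusted p = 0.044). Its call was lost without any 1 of the caffeine+ arrays (limma adjusted p = 0.1, 0.11 and 0.085 for arrays 1, 2 and 3) or without caffeine- array 3 (0.19), with a range of 0.025 to 0.19 over 16 alternatives. The Gsn call was also lost with quantile normalization (limma adjusted p = 0.14), arrays centred on their medians (0.12) or array weights (0.052). With every probe set tested (0.1) or without an intensity trend (0.057) it was lost too.

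Of 4 cross-linking genes 3 fell. Lcp1 encodes L-plastin, the leukocyte bundling protein, and had log2 values of 10.38, 10.26 and 10.24 in caffeine+ and 11.30, 11.39 and 11.17 in caffeine-, 1.99-fold lower (standard error 0.06 on the log2 scale, limma adjusted p = 5.8e-09). Flna, for filamin A, which joins filaments at wide angles, read 9.30, 9.32 and 9.24 in caffeine+ against 9.91, 9.90 and 9.79 in caffeine-, 1.49-fold lower (difference -0.58 ± 0.07). The groups of both genes were clearly separated. The alpha-actinin gene Actn4 differed by -0.39 ± 0.07, and its relative Actn1 by -0.15 ± 0.09, which did not pass (limma adjusted p = 0.24).

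All 4 measured genes of non-muscle myosin II, the motor that contracts the network, fell. Myl12b, for a regulatory light chain, had the second largest change of the list, with log2 values of 11.23, 11.20 and 11.10 in caffeine+ and 12.33, 12.40 and 12.23 in caffeine-, 2.21-fold lower (difference -1.14 ± 0.05, limma adjusted p = 2.7e-10). Its close relative Myl12a differed by -0.41 ± 0.07. Myl6, for the essential light chain, gave -0.50 ± 0.04, and its 4 dimmer probe sets were all lower, by -0.57, -0.58, -0.96 and -0.36. The heavy chain gene Myh9 read 9.42, 9.46 and 9.42 in caffeine+ and 9.85, 9.71 and 9.82 in caffeine-, 1.28-fold lower (difference -0.36 ± 0.06). A dimmer Myh9 probe set, 10430245, differed by -0.01 ± 0.07 (limma adjusted p = 0.92 in the fit of every probe set), so the fall of this gene rests on its brightest probe set.

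**Figure D3:**
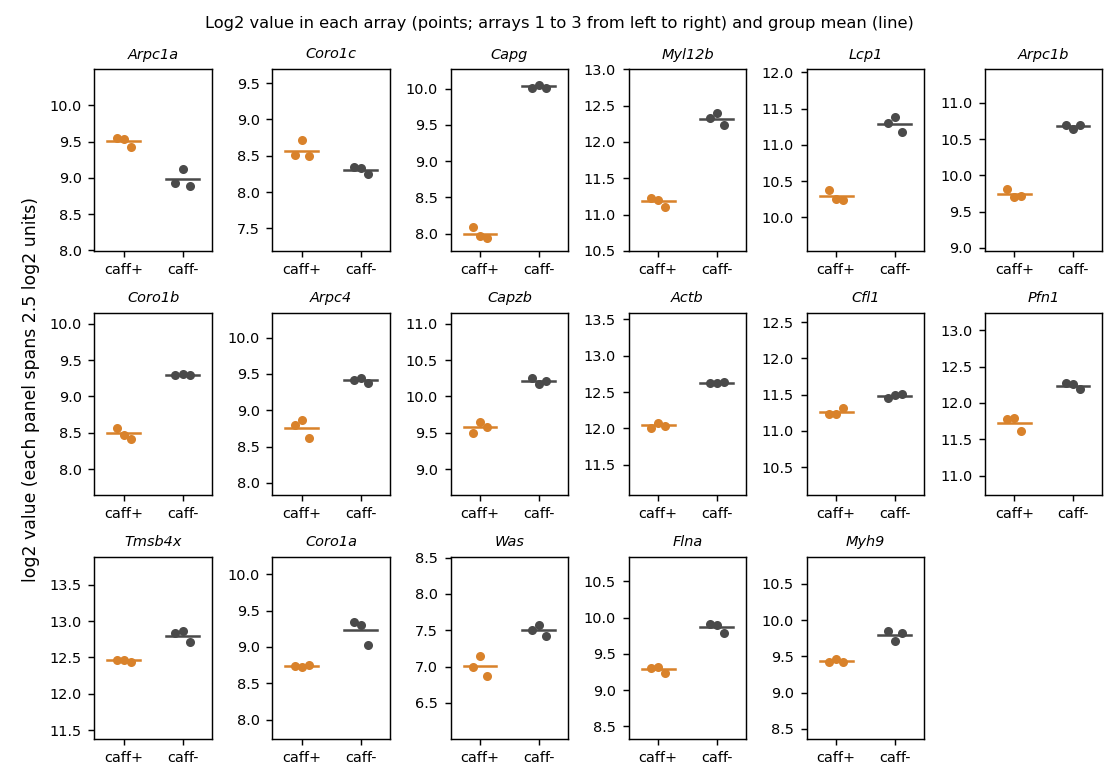
Log2 value (y axis) in each array for 17 of the genes, with the 3 caffeine+ arrays left (orange) and the 3 caffeine- arrays right (grey) in every panel, and lines at the group means. Arpc1a and Coro1c are higher in caffeine+, the other 15 are lower, and in none do the groups overlap, with the widest gap in Capg. All 17 are genes that passed the test, so their separation does not stand for the whole list.

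**Figure D4:**
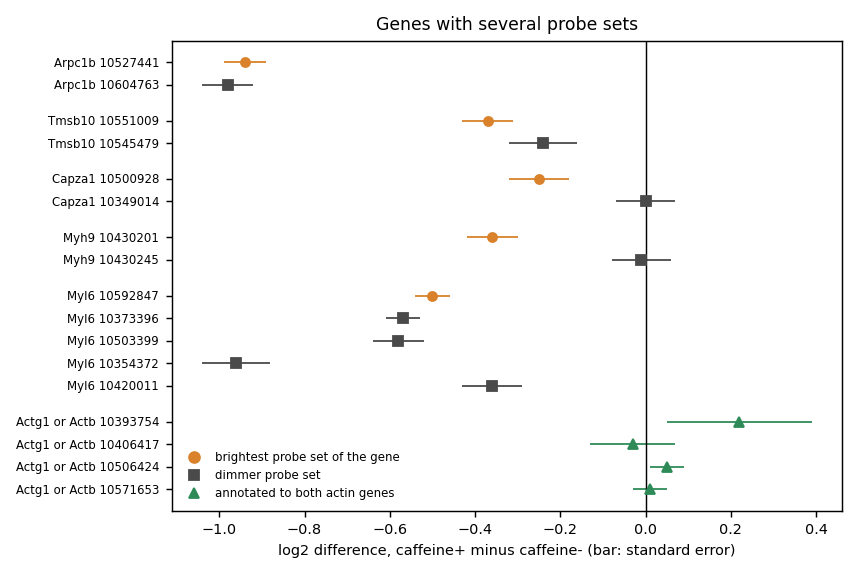
Log2 difference, caffeine+ minus caffeine- (x axis, with standard errors), for each probe set of the 5 genes that have several, and for the 4 probe sets shared by Actg1 and Actb. The probe sets of Arpc1b and Myl6 lie together left of 0, while the dimmer ones of Capza1 and Myh9 and the shared actin ones lie near 0, except 10393754 at 0.22 ± 0.17.

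Of the genes that tie actin to the membrane, 2 fell and 2 did not pass. Msn, for moesin, the main linker of this kind in leukocytes, was 1.46-fold lower (difference -0.55 ± 0.05), at 11.15, 11.09 and 11.09 in caffeine+ and 11.69, 11.70 and 11.58 in caffeine-. Its relative Ezr, for ezrin, differed by 0.05 ± 0.07 and its groups overlapped. Tln1, for talin, which activates integrins, differed by -0.23 ± 0.08 (limma adjusted p = 0.025), and the call was lost without any 1 of the caffeine+ arrays (limma adjusted p = 0.089, 0.067 and 0.066 for arrays 1, 2 and 3) or without caffeine- array 1 (0.1), with a range of 0.0027 to 0.1. The Tln1 call was also lost with arrays centred on their medians (limma adjusted p = 0.1), every probe set tested (0.054) or no intensity trend (0.055). Vcl, for vinculin, which reinforces talin, was 8.57, 8.70 and 8.59 in caffeine+ and 8.47, 8.46 and 8.37 in caffeine-, groups that did not overlap but whose difference of 0.19 ± 0.08 did not pass (limma adjusted p = 0.071).

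The genes of 6 further lists of actin control were divided in direction. Of their 68 measured genes, 18 fell and 19 rose, with a median log2 difference of -0.01. Over all genes 21.7% fell and 16.2% rose, so calls in both directions are not particular to these lists. The counts of each list below are to be read beside these shares. Formin and Ena genes, which extend unbranched filaments, were higher in 4 of 8 and lower in none (limma, with 1 lower at an unadjusted p under 0.05; median 0.25). Without caffeine+ array 2 or caffeine- array 3, as in 4 of the other alternatives, 1 was lower. Daam1 was 2.08-fold higher (difference 1.05 ± 0.10), Fmnl2 1.68-fold and Diaph1 1.43-fold higher, and Diaph3 differed by 0.21 ± 0.08 (limma adjusted p = 0.047), a call lost without any 1 of 5 of the arrays (limma adjusted p = 0.052 to 0.22, range 0.023 to 0.22 over 16 alternatives). The Diaph3 call was also lost with every probe set tested (limma adjusted p = 0.077), no intensity trend (0.072) or array weights (0.072).

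In the WAVE and cortactin list, 3 of 15 rose and 4 fell, among them Nck1 (1.06 ± 0.11) and Abi1 (0.72 ± 0.06) upward and Brk1 (-0.91 ± 0.07) and Hcls1 (-0.82 ± 0.07) downward. Brk1 and Abi1 encode subunits of the same WAVE complex.

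Tropomyosins and monomer-binding twinfilins had 2 of 9 lower and 1 higher, with Tpm4 at -0.65 ± 0.06, Tpm3 at -0.33 ± 0.04 and Twf1 at 0.52 ± 0.07. Tpm1 differed by 0.20 ± 0.09 and did not pass, except without caffeine- array 1 (difference 0.27, limma adjusted p = 0.035, range 0.031 to 0.34 over 16 alternatives) or with arrays centred on their medians (0.031). Of 20 further linkers 8 fell and 4 rose, with 2 higher without caffeine+ array 2 or 3. The spectrin-linking adducin genes Add1 and Add3 gave -0.94 ± 0.10 and -0.76 ± 0.08, Plek gave -0.38 ± 0.06 and the scaffold gene Iqgap2 gave 0.66 ± 0.07.

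Other myosins had 4 of 10 higher and 3 lower, with 2 higher without caffeine+ array 2 or caffeine- array 2. Myo1f and Myo1g, class I myosins of blood cells, gave -0.91 ± 0.08 and -0.55 ± 0.08, and Myo1e and Myo1d gave 0.58 ± 0.11 and 0.40 ± 0.09. In the list of SRF and its partners 3 of 6 rose and 1 fell. Srf itself was 1.62-fold higher (difference 0.69 ± 0.09), at 7.77 ± 0.11 in caffeine+ and 7.08 ± 0.02 in caffeine- (SD, n = 3). Its coactivator gene Mrtfb differed by 0.37 ± 0.08, which was 0.04 and not called with the mean of its probe sets, and the partner factors Elk4 and Elk1 by 0.29 ± 0.07 and -0.54 ± 0.09.

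**Figure D5:**
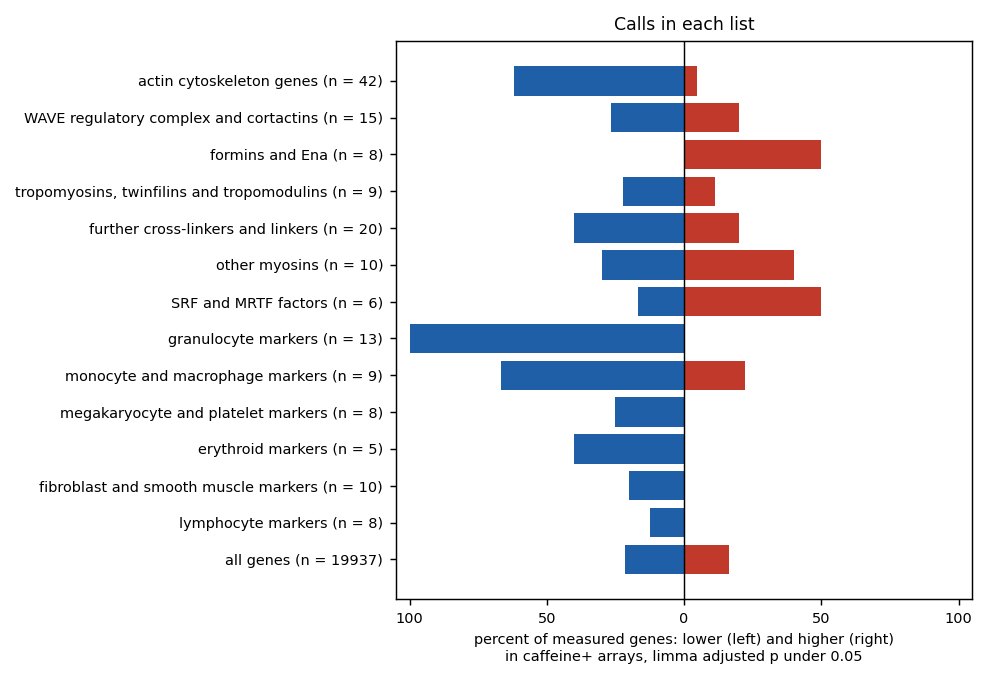
Percent of measured genes in each list that were lower (left, blue) or higher (right, red) in caffeine+ arrays (limma adjusted p under 0.05), with the number of genes in brackets and all 19937 genes in the bottom row. The actin cytoskeleton genes (26 of 42 lower, 2 higher) lie mostly to the left. So do the granulocyte markers (13 of 13 lower) and the monocyte and macrophage markers (6 of 9 lower, 2 higher). The other marker lists have calls only to the left. The 6 further lists of actin control fall on both sides or, for the formin and Ena genes, only to the right.

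Marker genes of granulocytes moved with the actin genes: all 13 fell, with a median of -0.61, and their mean log2 value per array was 9.62 to 9.69 in caffeine+ and 10.21 to 10.36 in caffeine-. Elane, for neutrophil elastase, differed by -1.10 ± 0.05, Prtn3 by -0.81 ± 0.06, Ngp by -0.85 ± 0.06 and Mpo by -0.39 ± 0.04. Of 9 measured monocyte and macrophage markers 6 fell and 2 rose (mean log2 value per array 8.14 to 8.17 in caffeine+ and 8.59 to 8.76 in caffeine-). Ly86, Ctss and Ccr2 gave -1.42 ± 0.07, -0.98 ± 0.05 and -1.58 ± 0.11, and Cd68 gave 0.82 ± 0.05. Monocytes express actin genes strongly too, and the part of a change in cell makeup in the falls of the actin genes was not tested.

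Megakaryocyte and platelet markers had 2 of 8 lower (mean log2 value 6.66 to 6.70 in caffeine+ and 6.87 to 7.00 in caffeine-), Ppbp at -1.08 ± 0.11 and Itgb3 at -0.40 ± 0.09, with Gp5 (-0.23 ± 0.11) and Itga2b (-0.10 ± 0.09) not past the threshold. Gp5 passed without caffeine- array 2 (difference -0.35, limma adjusted p = 0.022, range 0.022 to 0.38 over 15 alternatives). Erythroid markers had 2 of 5 lower (6.19 to 6.30 in caffeine+ and 6.44 to 6.55 in caffeine-), Alas2 at -0.65 ± 0.12 and Epb42 at -0.50 ± 0.10, with Slc4a1 (-0.09 ± 0.10) and Car1 (-0.06 ± 0.12) not past it. Fibroblast and smooth muscle markers had 2 of 10 lower (6.30 to 6.47 in caffeine+ and 6.45 to 6.56 in caffeine-), Cnn1 at -0.53 ± 0.10 and Pdgfrb at -0.34 ± 0.10, while the smooth muscle actin gene Acta2 differed by -0.25 ± 0.10 (limma adjusted p = 0.069) and Myh11 by -0.17 ± 0.10. Over 15 alternatives the limma adjusted p of Acta2 was 0.037 to 0.22, and it passed with the replicate number as a block (0.037) and after genes below the 25th percentile were left out (0.05). Without caffeine+ array 2, Pdgfrb did not pass (difference -0.30, limma adjusted p = 0.063, range 0.0052 to 0.063 over 15 alternatives), which left 1 of the 10 lower.

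Lymphocyte markers had 1 of 8 lower, the B cell receptor gene Cd79b at -1.72 ± 0.11 (6.54 ± 0.23 in caffeine+ and 8.26 ± 0.03 in caffeine-, SD, n = 3), and a mean log2 value of 5.18 to 5.41 in caffeine+ and 5.44 to 5.53 in caffeine-. Cd3d (0.24 ± 0.11), Cd79a (0.16 ± 0.10) and Cd3g (-0.18 ± 0.13) did not pass. None of these 4 lists held a marker that rose by the limma test, and Cd3d alone was higher at an unadjusted p under 0.05 (limma adjusted p = 0.12, range 0.029 to 0.33 over 15 alternatives). An array gives no true zero, so a low value is not read as absence.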

How the data were processed

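The 6 samples were hybridised to Affymetrix Mouse Gene 1.0 ST arrays, 1 each. Per the labels' protocols, 300 ng of Trizol-extracted total RNA was made into biotinylated cDNA. The deposited table gives 34760 probe sets per array between 1.90 and 13.98, with array medians of 6.49 to 6.60, and these were taken as log2 values normalized by the authors. The labels do not say how probes were summarized or normalized. The small number of arrays limits precision.

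Gene names came from the platform annotation supplied: 21640 carried 1 symbol, 1321 several, and 11799 were not listed. Symbols were updated to GRCm38.p6 for 21553. A gene was its brightest probe set by mean over 6 arrays, giving 19937 genes. They were fitted together with limma 3.58.1 in R 4.3.3 (lmFit, eBayes with trend, two-sided, Benjamini-Hochberg, threshold 0.05), without a filter. The fit was tested on simulated data. Members and lists were chosen with earlier results of these data known, and up to 4 genes per further list, those with the smallest p, are named. Some related genes are not reported here. Per-array values are given for members with the 8 largest falls, the 2 rises and a set of well-known genes, and for others picked out after their values were seen. Spans of 16 members overlap another gene. Alternatives were a replicate block, quantile normalization, median centring, filters at the 25th percentile and the median level, the mean of probe sets, every probe set, 2 variance models, array weights and each array left out.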

Additional observations from a re-analysis of the deposited data

How the results depend on the processing

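Under 16 alternatives, 23 of the 26 falls and 1 of the 2 rises among the actin genes kept their direction and their side of the threshold, and no called gene changed sign. The exceptions were Gsn, Tln1, Capza1 and Coro1c. Capza1 was lost with arrays centred on their medians (limma adjusted p = 0.068), with the mean of its probe sets (0.12) and without an intensity trend (0.058). Arpc2, Wdr1 and Vcl passed in 2 or 3 alternatives each, Arpc2 without caffeine- array 3 (limma adjusted p = 0.0052, range 0.0052 to 0.82) and Wdr1 without caffeine- array 1 (0.048, range 0.0068 to 0.45) among them. With each array left out in turn, 24 to 26 genes fell, 1 to 2 rose and the median was -0.33 to -0.30. The 1 was without caffeine+ array 2. With every probe set tested 1 gene rose and 24 fell. Centring each array on its median gave a median of -0.25, with 3 higher and 23 lower. With the replicate number as a block, 26 fell and 2 rose, with a median of -0.31, so it changed neither count. Same-numbered arrays did not deviate together throughout (r = -0.0426, 0.104 and 0.213 for numbers 1, 2 and 3). Caffeine+ arrays 2 and 3 correlated best with the caffeine- array of their own number. Caffeine+ array 1 correlated best with caffeine- array 2 (r = 0.123). Numbers were not taken as pairs, though these values do not exclude a pairing. Of the recomputed counts for the other lists, 363 were within 1.5 times of the main count and 21 were not.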

Other observations

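Close relatives within the list, picked out after their values were seen, shifted unequally within the same arrays. The log2 ratio of Arpc1a to Arpc1b was higher in caffeine+ by 1.46 ± 0.09 (SE, n = 3 per group), that of Coro1c to Coro1b by 1.07 ± 0.09 and to Coro1a by 0.75 ± 0.10, that of Ezr to Msn by 0.60 ± 0.02 and that of Capza2 to Capza1 by 0.35 ± 0.07. The ratio of Myl12b to Myl12a was lower in caffeine+ (-0.73 ± 0.04), and that of Actn1 to Actn4 was higher (0.24 ± 0.05). In each of these pairs the ratios of the groups did not overlap. Those of Tmsb10 to Tmsb4x (-0.03 ± 0.09) and Cfl2 to Cfl1 (0.15 ± 0.13) overlapped, and that of Evl to Vasp differed by 0.09 ± 0.07 without overlap. Each ratio used the brightest probe set of each gene. The dimmer Capza1 probe set, 10349014, had a difference of -0.00 ± 0.07, so the shift of Capza2 to Capza1 rests on the brightest one. No test across pairs was run, and how often the ratios of other gene pairs separate was not computed.

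The 26 genes that fell had a median genomic span of 15242 bases, and the other 16 one of 33918 bases. Across the 42 genes the log2 difference and the span had a Spearman correlation of 0.32, and across 19915 genes with a span 0.19. With mean level, it was -0.28 across the 42 and 0.02 across all genes. These points are genes of the same arrays, not independent replicates. The 42 genes lie on 16 chromosomes. All 4 on the X chromosome, Tmsb4x, Flna, Msn and Was, fell, where 26 of the 42 did. The share of all X genes that fell was not computed, so nothing is read from this count.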
